A study of Mus musculus with 8 samples.

Results

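The 10 genes described here make up the core of the NRF2 antioxidant response outside the glutathione S-transferases: the transcription factor gene Nfe2l2, its inhibitor gene Keap1 and 8 enzyme genes that NRF2 is known to switch on (Nqo1, Gclc, Gclm, Hmox1, Txnrd1, Srxn1, G6pdx and Ugdh). They were taken by symbol from a table of 55335 rows, and 10 of 10 symbols were found. All 10 had a mean of at least 1 FPKM (a fragment count corrected for gene length and library size) and so belonged to the 11274 genes tested.

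Liver pieces of wild-type mice were sequenced in 8 libraries. Every mouse was kept on CDAHFD, a high-fat feed without choline whose protein is replaced by L-amino acids and which brings about steatohepatitis (fat, inflammation and fibrosis of the liver). The RIC_hEV group (4 libraries) had received an injection into a vein of circulating extracellular vesicles from human volunteers after remote limb ischemic conditioning, brief interruptions of blood flow to a limb, and the ctr_hEV group (4 libraries) vesicles from volunteers after a sham procedure. Strain, age, dose, time of harvest and the number of donors are not given in the labels used here, and neither is whether each library is its own mouse, so p-values measure the spread between these libraries. No group without vesicles or without the diet was analysed here, so every value below is that of a diseased, vesicle-treated liver.

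NRF2 is a transcription factor that is made constantly and destroyed quickly. KEAP1, a sensor protein rich in reactive cysteines, hands it to a CUL3 ubiquitin ligase for degradation; oxidants and electrophiles modify KEAP1, and NRF2 then collects in the nucleus, pairs with small MAF proteins and binds antioxidant response elements near its target genes. Its activity is therefore set mainly at the protein level, and the mRNA levels of its targets are the usual readout in liver, where the pathway supplies glutathione, reduced thioredoxin, NADPH and conjugation substrates.

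The antioxidant response element has the core letters TGACNNNGC. These letters were searched on both strands in the window from 250 bases before to 50 after each annotated start in RefSeq's promoters for the mouse build GRCm38.p6, in which 8 of the 10 members had an entry (all but Gclc and Hmox1). The core was found in 6 of these 8 genes (Nfe2l2, Srxn1, Gclm, Ugdh, Txnrd1 and G6pdx), and in 14.0% of the 27025 symbols of that table. The stretches below are shown because they are the matches outside annotated exons in Ugdh, the member with the lowest p, and in 3 members compared as enzyme pairs further on. Each is written 5′ to 3′ on the strand of its gene, upstream of the start and outside annotated exons, with the matched letters in capitals; a match on the opposite strand begins with GC and ends with TCA.
Ugdh (chr5:65435950-65436014, minus strand): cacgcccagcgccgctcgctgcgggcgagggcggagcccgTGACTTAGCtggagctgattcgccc
Gclm (chr3:122245383-122245471, plus strand): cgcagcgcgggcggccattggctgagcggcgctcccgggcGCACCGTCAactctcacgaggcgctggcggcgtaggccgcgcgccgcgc
Txnrd1 (chr10:82859074-82859162, plus strand, at 1 of its 3 annotated starts): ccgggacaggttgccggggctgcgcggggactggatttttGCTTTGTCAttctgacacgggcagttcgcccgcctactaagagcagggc
Srxn1 (chr2:152105326-152105515, plus strand): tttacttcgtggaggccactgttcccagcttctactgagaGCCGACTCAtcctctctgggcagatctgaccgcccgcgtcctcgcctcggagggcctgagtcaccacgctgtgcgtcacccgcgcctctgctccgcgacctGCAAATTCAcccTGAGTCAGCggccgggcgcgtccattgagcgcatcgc

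In Ugdh the match begins 132 bases before the start, and a second one, on the opposite strand 94 bases before the start, lies in an exon of the GENCODE annotation. In Srxn1 the capitals mark the looser letters TGANNNNGC, which contain the stricter core; its strict match lies 28 bases after the start and is not shown. With the looser letters 7 of the 8 genes matched, Keap1 being added, against 45.0% of symbols. A match is a run of letters and says nothing on whether NRF2 was bound in these livers; Nqo1, a textbook NRF2 target, held neither form in this window.

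Of the 10 members, 9 had lower fitted values in RIC_hEV than in ctr_hEV livers and Keap1 had a higher one, but none passed the threshold (limma adjusted p of 0.05 over all 11274 genes tested, by Benjamini-Hochberg). The lowest limma adjusted p was 0.250, for Ugdh. In the same fit 0.0355% of all genes tested passed. At an unadjusted p under 0.05, 7 of the 10 lay lower and none higher, where the shares of all genes tested were 11.3% lower and 2.63% higher. The members were chosen with earlier results of these data known, so such contrasts with all genes, here and below, only describe. With each library centred on its median, 3 of the 10 lay lower at that p (all genes: 3.89%), and among all genes 918 were then higher and 438 lower, against 297 and 1279 as fitted. Since 73% of all genes were lower as fitted, with a median log2 change of -0.11, the log2 change of each member is given both as fitted and relative to that median. The median over the 10 members was -0.41 as fitted and -0.30 relative to the median gene.

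**Figure D1:**
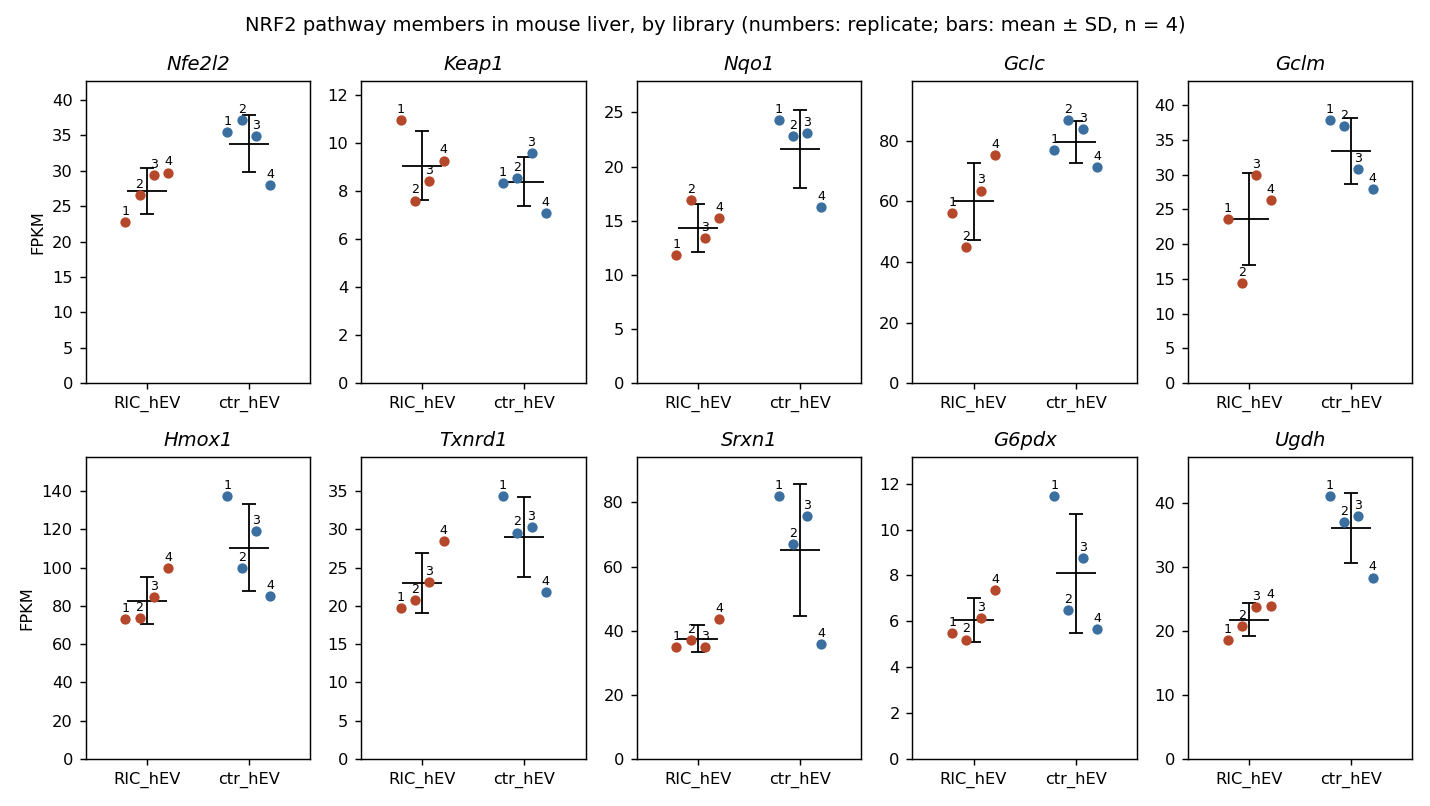
FPKM of each of the 10 members in every library (points, numbered by replicate), RIC_hEV left of ctr_hEV, with the mean and SD of 4 libraries per group. In Ugdh alone all RIC_hEV points lie below every ctr_hEV point; in every panel ctr_hEV 4 is the lowest of its group.

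**Figure D2:**
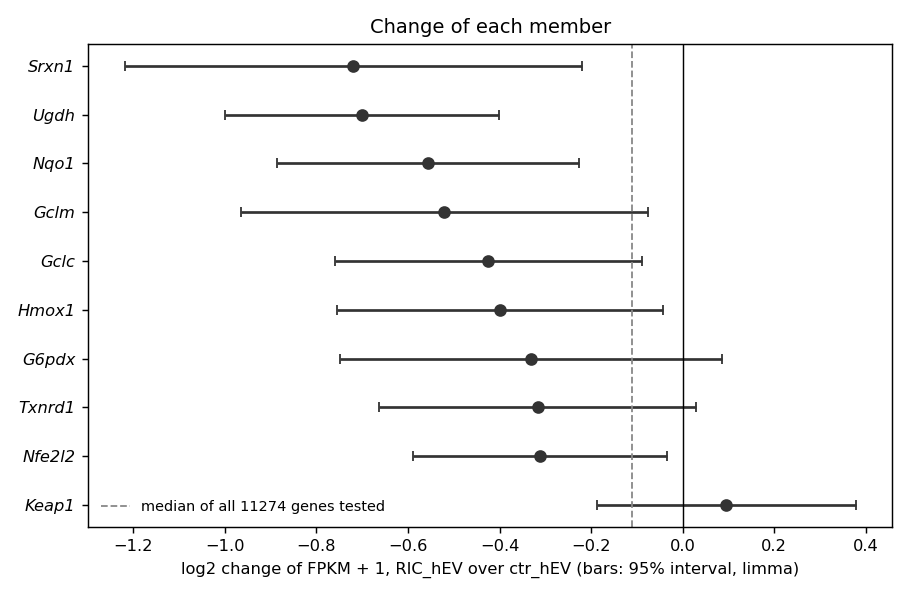
Log2 change of FPKM + 1 in RIC_hEV over ctr_hEV for each member, with the 95% interval from limma; the dashed line is the median of all genes tested, at -0.11. The intervals of Txnrd1, G6pdx and Keap1 include 0.

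One control library, ctr_hEV 4, lay close to the RIC_hEV libraries. It was the lowest of the 4 controls in 10 of 10 members, and in 53.1% of all genes tested. All RIC_hEV libraries lay below ctr_hEV 1, 2 and 3 in 8 of 10 members, against 21.6% of all genes tested. This contrast leaves out the control that was lowest in every member. It counts Hmox1, in which RIC_hEV 4 and ctr_hEV 2 were level at 99.8 FPKM. All 4 RIC_hEV libraries lay below all controls in Ugdh alone (1 of 10 members, against 4.56% of all genes tested). Without ctr_hEV 4, 3 members passed as lower (Srxn1, limma adjusted p = 0.0125; Ugdh, 0.0255; Nqo1, 0.0435), in a fit in which the genes passing went to 176 of 11274, or 1.56%. At the other end, ctr_hEV 1 was the highest of all 8 libraries in 7 members, and ctr_hEV 3 was among the 3 highest in 10.

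Marker genes of several cell types differed between the libraries as well. The libraries ctr_hEV 1 and ctr_hEV 3 stood at one end of the leading component of variation and ctr_hEV 4 among the RIC_hEV libraries. Summed markers of macrophages and Kupffer cells (12 of 12 measured) ranged from 666 to 993 FPKM in RIC_hEV and from 828 to 1563 in ctr_hEV, with ctr_hEV 1 and 3 highest, and cholangiocyte markers (7 measured) from 22.7 to 41.9 and from 29.0 to 151, also with ctr_hEV 1 and 3 highest; most of the cholangiocyte sum in those libraries was Spp1, at 129 and 97.7 FPKM. Stellate cell markers (10 measured) ranged from 114 to 145 FPKM in RIC_hEV and from 117 to 256 in ctr_hEV. Erythroid markers (7 measured) ranged from 152 to 164 and from 83.4 to 605, and in both sums ctr_hEV 1 and 3 were again highest. Single markers did not all follow these sums. Of the 12 macrophage and Kupffer cell markers 9 were lower as fitted in RIC_hEV, while Clec4f, Timd4 and Marco were higher. Of 5 tested erythroid markers 4 were lower as fitted and Alas2 was higher (all genes: 73% lower). Neutrophil markers (10 measured) summed to 9.73 to 19.1 FPKM in RIC_hEV and 16.5 to 80.2 in ctr_hEV, and hepatocyte markers (11 measured) to 35460 to 41530 and 28140 to 43610, sums made up mostly of Alb. Gene by gene, 5 of 5 tested neutrophil markers were lower as fitted in RIC_hEV, with a median log2 change of -1.12. At an unadjusted p under 0.05 there were 5 of them (all genes: 11.3% lower). Cholangiocyte markers were lower in 5 of 5 tested, 2 at that p, and stellate cell markers in 10 of 10, 0 at that p. By contrast, 11 of 11 hepatocyte markers were higher as fitted, 5 of them at that p (all genes: 2.63%). Their median log2 change was 0.29, with Alb at 0.006. Without ctr_hEV 1 and 3 together, 4 of these 11 were lower. In that setting 2 of 10 stellate cell markers and 2 of 5 cholangiocyte markers were lower as fitted. So were 6 of 12 macrophage and Kupffer cell markers, 0 of 5 erythroid markers and 5 of 5 neutrophil markers. Cyp2e1, a hepatocyte marker, had 3266 to 3952 FPKM in RIC_hEV, against 1182, 3129, 1329 and 3490 FPKM in ctr_hEV 1 to 4. Not all hepatocyte markers had this pattern. Glul was also lowest in ctr_hEV 1 and 3, whereas Apob had its highest value in ctr_hEV 3, at 205 FPKM. Lymphocyte and plasma cell markers (8 measured) summed to 44.4 to 56.2 FPKM in RIC_hEV and 16.5 to 27.8 in ctr_hEV, sums made up mostly of Igkc. Only 3 of the 8 were tested: Igkc and Jchain were higher as fitted and Nkg7 was lower. None of these markers was at 0 in every library. Their part in the members' values was not tested, and in pieces of whole liver fewer cells of a type and less RNA per cell cannot be told apart. Without ctr_hEV 1 and 3 together, 9 of 10 members had lower fitted values in RIC_hEV, with G6pdx at -0.01. Of these, 2 were at an unadjusted p under 0.05 (all genes: 3.27%). The members' median was -0.32 as fitted (all genes tested: -0.03), and their lowest limma adjusted p was 0.787. Depth, estimated from the steps between low values, was 19300000 to 28500000 fragments in RIC_hEV and 23600000 to 28800000 in ctr_hEV, so that each value of a member rests on an estimated 322 to 9394 fragments.

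Nfe2l2 (chr2:75675513-75704641, minus strand, mm10), the gene of NRF2 itself, had 22.7, 26.6, 29.4 and 29.7 FPKM in RIC_hEV 1 to 4, against 35.5, 37.1, 34.9 and 27.9 FPKM in ctr_hEV 1 to 4. The first 3 controls lay above every RIC_hEV library, and ctr_hEV 4 lay within the RIC_hEV range. The means were 27.1 ± 3.25 FPKM in RIC_hEV and 33.9 ± 4.06 in ctr_hEV (SD, n = 4 each), a log2 change of -0.31 as fitted (SE 0.13, limma adjusted p = 0.354) and -0.20 relative to the median gene.

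Keap1 (chr9:21229730-21239361, minus strand), whose protein holds NRF2 for degradation, had 10.9, 7.59, 8.41 and 9.26 FPKM in RIC_hEV 1 to 4, against 8.31, 8.54, 9.58 and 7.08 FPKM in ctr_hEV 1 to 4. The groups overlapped, RIC_hEV 1 being the highest library and ctr_hEV 4 the lowest. Its log2 change was 0.10 as fitted (SE 0.13, limma adjusted p = 0.706; 95% interval from -0.19 to 0.38), the only positive one among the members. It shares 510 exon bases with the antisense gene Gm16754, whose reads cannot be told from its own without a stated strand setting.

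The ratio of Nfe2l2 to Keap1 within a library was compared, a choice made after the values were seen. The same holds for the ratios of Gclc to Gclm and of Srxn1 to Txnrd1 below. Per length, Nfe2l2 stood above Keap1 by a ratio of 2.08, 3.498, 3.489 and 3.21 in RIC_hEV 1 to 4, against 4.27, 4.34, 3.65 and 3.94 in ctr_hEV 1 to 4, so the groups did not overlap, although RIC_hEV 2 and ctr_hEV 3 were close. The means were 3.07 ± 0.674 in RIC_hEV and 4.05 ± 0.321 in ctr_hEV (SD, n = 4 each). The two-sided exact permutation p was 0.0286, the smallest that groups of 4 allow, and 0.0857 after adjustment over the 3 ratios compared, so the difference did not pass. A ratio within a library shows unequal change of the pair and not which of them moved, and it does not depend on a library's overall scale. Without RIC_hEV 1 the difference of the mean log2 ratios went to -0.25 from -0.43.

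**Figure D3:**
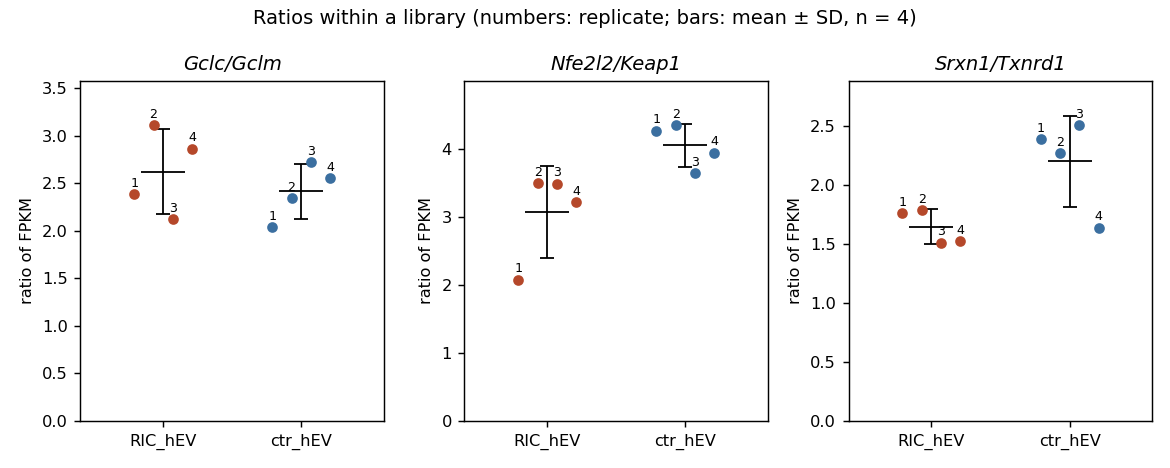
Ratios of FPKM within a library for Gclc over Gclm, Nfe2l2 over Keap1 and Srxn1 over Txnrd1 (points, numbered by replicate), RIC_hEV left of ctr_hEV, with the mean and SD of 4 libraries per group. Only in the middle panel are the groups apart, with RIC_hEV at 2.08 to 3.498 and ctr_hEV at 3.65 to 4.34.

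Glutathione synthesis is limited by glutamate-cysteine ligase, which has a catalytic subunit encoded by Gclc and a modifier subunit, encoded by Gclm, that raises its efficiency. Gclc (chr9:77754535-77794485, plus strand) had 56.2, 44.9, 63.5 and 75.4 FPKM in RIC_hEV 1 to 4, against 77.0, 86.7, 83.9 and 71.3 FPKM in ctr_hEV 1 to 4. RIC_hEV 4 lay above ctr_hEV 4, and the other RIC_hEV libraries lay below every control. Its log2 change was -0.43 as fitted (SE 0.15, limma adjusted p = 0.353) and -0.31 relative to the median gene.

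Gclm (chr3:122245557-122270732, plus strand) had 23.6, 14.4, 29.9 and 26.3 FPKM in RIC_hEV 1 to 4, against 37.8, 36.9, 30.8 and 28.0 FPKM in ctr_hEV 1 to 4. RIC_hEV 3 lay above ctr_hEV 4, and RIC_hEV 2 was the lowest library for both subunits. The log2 change was -0.52 as fitted (SE 0.20, limma adjusted p = 0.354) and -0.41 relative to the median gene. Gclm overlaps Gm17494 and Gm6061 in 540 exon bases, and 6.82% of its 31-base stretches also occur in other genes. The catalytic to modifier ratio was 2.62 ± 0.447 in RIC_hEV and 2.41 ± 0.293 in ctr_hEV (SD, n = 4 each; two-sided exact permutation p = 0.486), a difference smaller than the spread within either group. Across the 8 libraries the subunits followed each other (Pearson r = 0.89, and 0.80 after subtracting each group's mean), as points that share library, depth and cell makeup.

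Srxn1 and Txnrd1 serve the thiol systems: sulfiredoxin repairs over-oxidized peroxiredoxins, and cytosolic thioredoxin reductase recharges thioredoxin with NADPH. Srxn1 (chr2:152105516-152111376, plus strand) had 34.8, 37.0, 34.9 and 43.5 FPKM in RIC_hEV 1 to 4, against 82.0, 67.1, 75.8 and 35.7 FPKM in ctr_hEV 1 to 4. The RIC_hEV libraries were close together and ctr_hEV 4 lay among them, while the other controls were far higher. The means were 37.5 ± 4.11 FPKM in RIC_hEV and 65.2 ± 20.5 in ctr_hEV (SD, n = 4 each). This was the largest log2 change among the members, -0.72 as fitted (SE 0.23, limma adjusted p = 0.334) and -0.61 against the median gene; it was -0.98 without ctr_hEV 4 and -0.38 without ctr_hEV 1 and 3 together.

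Txnrd1 (chr10:82833951-82897712, plus strand) had 19.7, 20.7, 23.1 and 28.5 FPKM in RIC_hEV 1 to 4, against 34.3, 29.6, 30.2 and 21.8 FPKM in ctr_hEV 1 to 4. The groups overlapped, since RIC_hEV 3 and 4 lay above ctr_hEV 4. Its log2 change was -0.32 as fitted (SE 0.16, limma adjusted p = 0.372), with a 95% interval from -0.66 to 0.03. The ratio of Srxn1 to Txnrd1 averaged 1.65 ± 0.147 in RIC_hEV and 2.2005 ± 0.386 in ctr_hEV (SD, n = 4 each; two-sided exact permutation p = 0.0857, adjusted over 3 ratios 0.129).

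Nqo1 and Hmox1 remove quinones and heme. Nqo1 (chr8:107388225-107403206, minus strand), a quinone reductase and the classical NRF2 marker, had 11.8, 16.9, 13.4 and 15.2 FPKM in RIC_hEV 1 to 4, against 24.3, 22.8, 23.1 and 16.3 FPKM in ctr_hEV 1 to 4. Only RIC_hEV 2 lay above ctr_hEV 4. The means were 14.3 ± 2.19 FPKM in RIC_hEV and 21.6 ± 3.61 in ctr_hEV (SD, n = 4 each), a log2 change of -0.56 as fitted (SE 0.15, limma adjusted p = 0.332) and -0.45 relative to the median gene.

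Hmox1 (chr8:75093621-75100589, plus strand), heme oxygenase 1, breaks heme down to biliverdin, iron and carbon monoxide. It had 73.2, 73.7, 84.4 and 99.8 FPKM in RIC_hEV 1 to 4, against 137, 99.8, 119 and 85.1 FPKM in ctr_hEV 1 to 4. RIC_hEV 4 and ctr_hEV 2 were level, and ctr_hEV 1 and 3 were the highest, as they also were in Nqo1, Txnrd1, Srxn1, G6pdx and Ugdh. Its log2 change was -0.40 as fitted (SE 0.16, limma adjusted p = 0.354), -0.29 against the median gene, and -0.16 as fitted without ctr_hEV 1 and 3 together.

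G6pdx and Ugdh feed NADPH and glucuronic acid to these reactions. G6pdx (chrX:74409483-74429194, minus strand), the entry enzyme of the pentose phosphate pathway, had 5.50, 5.204, 6.13 and 7.37 FPKM in RIC_hEV 1 to 4, against 11.5, 6.48, 8.76 and 5.65 FPKM in ctr_hEV 1 to 4. The groups overlapped broadly. Its log2 change of -0.33 as fitted (SE 0.19, limma adjusted p = 0.413) went to -0.01 without ctr_hEV 1 and 3 together. Its level is uncertain, since 23.6% of its 31-base stretches also occur in G6pd2 or Ikbkg, and 418 of its exon bases overlap Ikbkg on the other strand.

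Ugdh (chr5:65413221-65435949, minus strand) oxidizes UDP-glucose to UDP-glucuronic acid, the substrate of glucuronidation and of glycosaminoglycan chains. It had 18.5, 20.7, 23.7 and 23.9 FPKM in RIC_hEV 1 to 4, against 41.0, 37.0, 37.9 and 28.3 FPKM in ctr_hEV 1 to 4. Every RIC_hEV library lay below every control, in 16 of 16 pairs. The means were 21.7 ± 2.59 FPKM in RIC_hEV and 36.0 ± 5.44 in ctr_hEV (SD, n = 4 each), 39.7% lower in RIC_hEV. The log2 change of -0.70 as fitted (SE 0.14, limma adjusted p = 0.250; -0.59 against the median gene) ranked 16th of 11274 by p, and stayed between -0.81 and -0.56 as fitted in all 18 alternatives. Even so it passed in 2 of them only, without ctr_hEV 4 and with library weights (limma adjusted p = 0.0255 and 0.0446). The limma adjusted p over all alternatives ran up to 0.787. Ugdh shares 158 exon bases with Gm43552 on the same strand, and 3.34% of its 31-base stretches also occur in other genes.

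By level, which FPKM allows to be compared between genes per length, Hmox1 stood above Gclc in 8 of 8 libraries, with means over all libraries of 96.6 and 69.9 FPKM. Srxn1 followed at 51.3 and lay below Gclc in 7 of 8. Nfe2l2, Ugdh, Gclm and Txnrd1 formed a group between 26.0 and 30.5 whose neighbours changed places between libraries: Nfe2l2 was above Ugdh in 4 of 4 RIC_hEV libraries and 1 of 4 ctr_hEV libraries. Nqo1 followed at 17.97, below Txnrd1 in every library, and Keap1 and G6pdx were the lowest at 8.71 and 7.07. The 10 members together summed to 305 ± 41.7 FPKM in RIC_hEV and 426 ± 69.7 in ctr_hEV (SD, n = 4 each), with ctr_hEV 4 at 327, within the RIC_hEV range of 268 to 359.

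Over all 8 libraries the members other than Keap1 followed one another. Among the 36 pairs of members without Keap1, Pearson's r of log2(FPKM + 1) over the 8 libraries ran from 0.50 to 0.97 with a median of 0.81, and after subtracting each group's mean from -0.10 to 0.97 with a median of 0.71. Between Keap1 and the 9 others, r ran from -0.24 to 0.13 with a median of 0.06, and after subtracting each group's mean from -0.01 to 0.49 with a median of 0.32, so within groups the ranges of the pairs with and without Keap1 overlapped. The tightest pair was Hmox1 and G6pdx at 0.97, and the loosest without Keap1 was Nqo1 and Gclm at 0.50. The 8 points of each pair share library, depth and cell makeup, so these values describe the libraries.

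**Figure D4:**
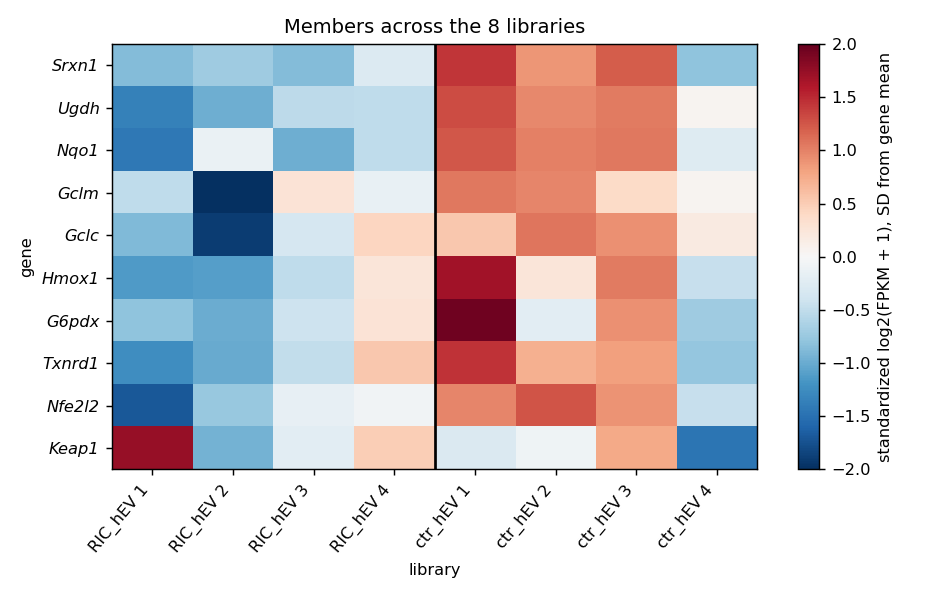
Standardized log2(FPKM + 1) of each member (rows) in each library (columns, RIC_hEV left of the line and ctr_hEV right of it); red is above and blue below the gene's mean over 8 libraries. The columns of ctr_hEV 1, 2 and 3 are mostly red, the column of ctr_hEV 4 has no red beyond a pale shade, and the row of Keap1 has its highest value in RIC_hEV 1.

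The 5 genes most like the mean of the members over the 8 libraries were Xpot, Dsp, Nup205, Scaf4 and Twf1, with Pearson's r between 0.986 and 0.992. Those most like Ugdh were Gng12, Ccser2, Efr3a, Eps15 and Gipc2, with r between 0.984 and 0.993. None of the 10 had a limma adjusted p under 0.05, and the lowest among them was 0.332.

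None of the genes in 9 further lists of the pathway passed. The counts of each list as fitted are to be read against all genes tested, of which 73% were lower. At an unadjusted p under 0.05, 11.3% of all genes were lower and 2.63% higher. These shares do not hold for the counts with median centring. In that setting the median log2 change of all genes was 0.025, so more of them were higher than lower. Of 23 tested NRF2 targets outside the members and the glutathione S-transferases, 21 were lower as fitted, 7 of them at an unadjusted p under 0.05 and 1 gene higher, with a median log2 change of -0.20 (all genes tested: -0.11). Cbr3, a carbonyl reductase, averaged 4.45 ± 0.976 FPKM in RIC_hEV and 8.72 ± 3.04 in ctr_hEV (SD, n = 4 each; limma adjusted p = 0.332). Htatip2 averaged 23.2 ± 1.84 and 33.9 ± 7.96, and Abcc2, the canalicular exporter of conjugates, 70.9 ± 7.07 and 86.2 ± 7.01. With each library centred on its median, 16 of the 23 were lower, 2 of them at an unadjusted p under 0.05 (all genes: 3.89%).

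Regulators of NRF2 stood close to the median gene. Of 12 tested, 10 were lower as fitted (83.3%, against 73% of all genes), 2 at an unadjusted p under 0.05 (16.7%, against 11.3%), with a median of -0.08; with each library centred on its median, 4 of 12 were lower and the median was 0.05. Sqstm1, which encodes the autophagy receptor p62 that draws KEAP1 away, had 198, 179, 194 and 201 FPKM in RIC_hEV 1 to 4, against 279, 237, 275 and 190 FPKM in ctr_hEV 1 to 4 (limma adjusted p = 0.354), again with ctr_hEV 4 in the range of the RIC_hEV libraries. Pgam5, a mitochondrial phosphatase that binds KEAP1, averaged 6.97 ± 0.477 FPKM in RIC_hEV and 9.09 ± 1.07 in ctr_hEV. Cul3, the scaffold of the ligase, averaged 9.33 ± 1.20 and 10.9 ± 0.880.

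Around Gclc and Gclm, 11 of 16 tested genes of the glutathione cycle were lower as fitted, with a median of -0.11, that of all genes; with median centring 7 of 16 were lower. Gss, which completes glutathione, averaged 13.9 ± 2.01 FPKM in RIC_hEV and 18.2 ± 3.63 in ctr_hEV, Gsr, which reduces it, 32.5 ± 3.53 and 44.8 ± 10.4, and the peroxidase family member Gpx7 3.25 ± 0.370 and 5.203 ± 1.71 (SD, n = 4 each; limma adjusted p of 0.354, 0.354 and 0.353). Of 15 thioredoxin and peroxiredoxin genes, 8 were lower as fitted and the median was -0.01, against 3 lower with median centring. Prdx6, a peroxiredoxin that also acts on phospholipids, averaged 70.7 ± 5.72 FPKM in RIC_hEV and 59.1 ± 5.54 in ctr_hEV, Sesn3 1.45 ± 0.246 and 1.95 ± 0.289, and Txnip, the thioredoxin inhibitor, 112 ± 11.5 and 87.2 ± 53.4. In the pentose phosphate and NADPH list 9 of 11 were lower as fitted (6 with median centring), median -0.14, with Pgd, the enzyme that makes the second NADPH of the pathway, at 9.42 ± 1.20 FPKM in RIC_hEV and 13.7 ± 4.44 in ctr_hEV, Mthfd1 at 31.4 ± 2.29 and 27.0 ± 1.503, and Tkt at 12.5 ± 0.825 and 14.8 ± 2.72.

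Around Hmox1, 8 of 10 tested heme and iron genes were lower as fitted with a median of -0.05, and 3 of 10 with median centring. Slc40a1, the iron exporter ferroportin, had 19.5, 18.4, 19.8 and 22.1 FPKM in RIC_hEV 1 to 4, against 31.3, 27.8, 28.3 and 24.7 FPKM in ctr_hEV 1 to 4. Its groups did not overlap (log2 change -0.47 as fitted, SE 0.11, limma adjusted p = 0.332). Cd163, the macrophage receptor for hemoglobin and haptoglobin, averaged 3.71 ± 1.62 FPKM in RIC_hEV and 1.94 ± 1.47 in ctr_hEV, and the heme transporter Slc48a1 28.4 ± 2.27 and 36.4 ± 10.9, both with overlapping groups.

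Around Ugdh, 8 of 17 tested genes of the glucuronic acid route were lower as fitted and the median was 0.03, while 5 were lower with median centring. Ugt2b35, a UDP-glucuronosyltransferase, had 39.1, 54.3, 57.7 and 51.6 FPKM in RIC_hEV 1 to 4, against 96.1, 105, 90.0 and 65.9 FPKM in ctr_hEV 1 to 4, with no overlap (log2 change -0.80 as fitted, SE 0.17, limma adjusted p = 0.332). Reads of this gene could be split with close family members. Slc35d1, which carries UDP-glucuronic acid into the endoplasmic reticulum, averaged 9.16 ± 0.568 FPKM in RIC_hEV and 12.9 ± 2.27 in ctr_hEV, and Pgm1, upstream of UDP-glucose, 6.04 ± 1.03 and 8.47 ± 2.24. Of the 17 genes, which leave out Ugdh itself, 3 (Ugt2b35, Slc35d1 and Pgm1) were lower at an unadjusted p under 0.05. That is 17.6%, against 11.3% of all genes tested. With median centring 2 of the 17 were lower at that p (all genes: 3.89%).

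The glutathione S-transferases, NRF2 targets set apart from the members, had 15 of 21 tested genes lower as fitted (71.4%, against 73% of all genes), 3 at an unadjusted p under 0.05 (14.3%, against 11.3%), and a median of -0.11, that of all genes; with median centring 9 of 21 were lower. Gsta2 averaged 29.8 ± 7.84 FPKM in RIC_hEV and 50.6 ± 9.51 in ctr_hEV, Gstm3 103 ± 24.3 and 146 ± 20.7, and Gsta1 42.1 ± 16.2 and 56.8 ± 6.42 (SD, n = 4 each). Their limma adjusted p were 0.332, 0.336 and 0.355. Reads of each could be split with close family members, which was not checked for these genes. The library ctr_hEV 4, lowest of the controls in each of the 10 members, had the highest of all 8 values of Gsta2, at 63.1 FPKM. Among 10 antioxidant enzymes not classed as NRF2 targets, 5 were lower as fitted and 0 with median centring, none was at an unadjusted p under 0.05 and the median was -0.01; the superoxide dismutase Sod1 averaged 128 ± 13.0 FPKM in RIC_hEV and 115 ± 8.25 in ctr_hEV, Gpx4 240.3 ± 30.9 and 260.1 ± 19.1, and Prdx2 33.7 ± 3.401 and 35.6 ± 1.90. The difference between the members and these lists was not tested.

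**Figure D5:**
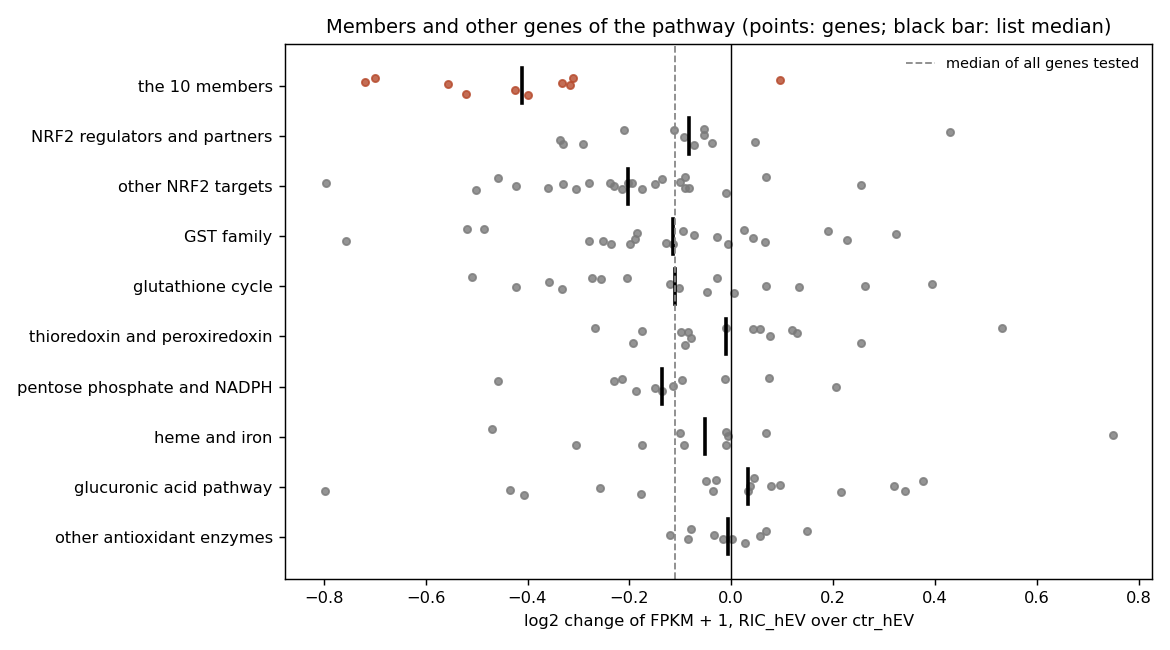
Log2 change of FPKM + 1 in RIC_hEV over ctr_hEV for each tested gene (points) of the 10 members and of 9 other lists of the pathway; black bars are list medians and the dashed line is the median of all genes tested. The members' median is -0.41, that of the other NRF2 targets -0.20 and that of the other antioxidant enzymes -0.01.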

How the data were processed

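Trizol RNA of 8 liver samples went into VAHTS universal kit libraries, per the labels' protocols. Tools listed in the submitters' processing notes, with no role for each, are FastQC 0.11.9, Trimmomatic 0.38, HISAT2 2.2.1, HTSeq 0.13.5, R 3.4.1 and DESeq2 1.18.1, and the build is mm10. The authors deposited FPKM values, 1 column per library; the gene lengths, annotation and strand setting behind them are not stated in the labels. Read counts were not used here, and low values gave estimated depths only.

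From these, 3225 rows without a gene name were left out. Values were transformed to log2(FPKM + 1), which understates changes of low genes. The 11274 genes averaging 1 FPKM or more were fitted with limma 3.58.1 (R 4.3.3; variance trend, two-sided, Benjamini-Hochberg, threshold 0.05), checked on simulated data. Ratios were compared by exact permutation of log2 ratios over 70 assignments. Promoters are RefSeq's; coordinates, exon overlaps and shared 31-base stretches come from GENCODE M21 (mm10). The members and lists were chosen with earlier results of these data known. Of 212 list symbols, 208 were in the table. Named from each list are up to 3 tested genes with the lowest p, and as most alike the 5 genes with the highest r, without unnamed gene models. Groups and replicate numbers come from the titles. Alternatives covered pseudocount, filter, scaling, variance model, library weights, a replicate block and left-out libraries.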

Additional observations from a re-analysis of the deposited data

How the results depend on the processing

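Of 180 recomputed log2 changes of members, 175 kept their direction and their side of the threshold. Keap1 turned to -0.024 with library weights. Ugdh passed with library weights and, with Srxn1 and Nqo1, without ctr_hEV 4, as given above. The number of members passing, 0, went to 1 with library weights and lay between 0 and 3 with single libraries left out. The number of all genes passing, 4, went to 2 without a filter, 1 with a filter at a mean FPKM of 5, 15 with library weights and 8 without ctr_hEV 1 and 3 together, and lay between 1 (without RIC_hEV 3 or RIC_hEV 4) and 176 (without ctr_hEV 4) with single libraries left out. With the replicate block 3 genes and 0 members passed. The labels do not state whether same-numbered libraries share more than a number. The r of their deviations from the group means (0.05, 0.12, -0.01 and -0.23) cannot decide it, since deviations within a group of 4 sum to 0. The 7 members lower at an unadjusted p under 0.05 (all genes: 11.3%) became 3 with median centring (all genes: 3.89%). Without ctr_hEV 1 and 3 together there were 2 (all genes: 3.27%). With single libraries left out there were between 3 (without RIC_hEV 2, all genes: 7.48%) and 9 (without ctr_hEV 4, all genes: 24.7%). For all genes at an unadjusted p under 0.05, 297 were higher and 1279 lower, but 918 and 438 with median centring, 605 and 607 after quantile normalization, and 195 and 1588 as TPM. The 3 ratios kept their direction in every left-out setting, an alternative chosen after the data were seen. The causes were not tested. Groups of 4 and unknown read counts limit precision.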

Other observations

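Gpx1, the main cytosolic glutathione peroxidase, lay at 2 separate levels within each group and was chosen for naming after its values were seen. It had 236, 1131, 225 and 864 FPKM in RIC_hEV 1 to 4, against 854, 262, 173 and 1104 FPKM in ctr_hEV 1 to 4. Each group thus held 2 libraries between 173 and 262 FPKM and 2 between 854 and 1131 FPKM. The estimated depth was 19300000 to 27600000 fragments in the libraries at the upper level and 23600000 to 28800000 in those at the lower level, and its part was not tested. The limma adjusted p of Gpx1 between RIC_hEV and ctr_hEV was 0.963.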
